A study of Mus musculus with 3 samples.

Results

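Accessible chromatin was examined at 48 genes of autophagy, the lysosome and the MiT/TFE transcription factors, out of 21887 protein-coding genes on the mm10 build. The genes were chosen by name and function, with earlier results of these data known, and all 48 were matched by symbol. For each gene, peaks were read at the gene end (within 1 kb of either end of the annotated gene) and in the gene window (the gene extended by 20 kb at both ends). The libraries came from hematopoietic stem cells (HSCs) of adult Mx1-Cre-/-;mTORflox/flox mice given poly(I:C). Without the Cre transgene the floxed mTOR alleles stay intact, so all groups are mTOR wild type. The cells were sorted, kept in culture, and treated with 200 nM AZD2014, with 1 µM rapamycin or with DMSO as solvent control. Each condition gave 1 ATAC-seq library of 50000 cells, and ATAC-seq marks open chromatin by where a transposase can insert. How many mice were pooled and how long the exposure lasted is not stated in the labels.

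Autophagy encloses cytoplasm in a membrane that is built by the ULK1 kinase complex, a class III phosphatidylinositol 3-kinase complex and the conjugation of Atg8-family proteins to lipid, and delivers it to lysosomes. Lysosomes digest the cargo with acid hydrolases in a lumen that the vacuolar ATPase (V-ATPase) keeps acid. TFEB, TFE3, MITF and TFEC form the MiT/TFE family of basic helix-loop-helix factors, which bind the CLEAR element found in promoters of many of these genes. Active mTORC1 phosphorylates ULK1, ATG13 and TFEB, which holds autophagy back and keeps TFEB in the cytoplasm. AZD2014 competes with ATP at the mTOR kinase and rapamycin is an allosteric inhibitor that acts with FKBP12, so the question here is which of these genes differ in accessibility under each compound.

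Because every condition has 1 library, differences have no replicate check and no test was made. The doses differ, so the compounds are described side by side and not compared at matched exposure. Both inhibitors are compared with the same DMSO library. The AZD2014 and rapamycin lists held 21321 and 18233 peaks, and the DMSO list was the shortest. The score of a peak is the authors' own value, at least 50 in every list, and read depth is unknown. A gene without a peak is therefore a gene at which no peak passed the authors' threshold, not one shown to be closed. In bulk cells, fewer cells with an open site and less opening per cell cannot be told apart. Because the lists differ in length, ranks are given after each list was shortened to its highest scores, as many as the DMSO list holds (lists of equal length), except where the full list is named. They are rank percentiles, in which 100 is the highest score, and differences between them are in percentage points. Among 12 HSC marker genes, gene-end peaks numbered 5, 6 and 5 in the DMSO, AZD2014 and rapamycin lists. Kit, Mecom, Hlf, Meis1 and Flt3 had one in every list. Among those without one in any list were Ly6a, Procr, Slamf1, Tek and Cd48. Of the markers of other cells, T cell genes had 0 of 4 in every list, erythroid genes 2 of 4 and megakaryocyte genes 2 of 3. B cell genes had 1, 2 and 2 of 4, with Cd79a under both inhibitors and not DMSO. Non-blood genes had 1, 2 and 1 of 4, with Col1a1 in every list and Epcam under AZD2014 alone. Myeloid genes had 0, 0 and 1 of 5, with Mpo under rapamycin, and mast cell and basophil genes 0, 0 and 1 of 3, with Cpa3 under rapamycin. Their part in the results was not tested.

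The sequences that tie these genes to the MiT/TFE factors are the CLEAR core TCACGTGA and the shorter E-box CACGTG that it contains. RefSeq promoters of GRCm38.p6, running from 250 bases before to 50 bases after a start site, were held for 37 of the 48 genes. The CLEAR core stood in the promoters of 7 of these 37 genes (18.9%), against 246 of 17492 protein-coding genes (1.41%), searched on both strands. Among genes with a peak over the promoter in all 3 lists the shares were 6 of 31 (19.4%) and 2.42%. The E-box was present at 13 of 37 genes (35.1%), against 8.91% of all genes. The M-box TCATGTGA, a related MITF motif that does not overlap the core, was present at 1 gene, Gla, against 1.00% of all genes. The CLEAR element was defined on lysosomal gene promoters, so these shares are a property of the chosen genes and not evidence from the libraries. The 7 genes with a CLEAR core and Lamp1, whose promoter holds 4 E-boxes, are shown 5′ to 3′ on the gene's strand. Capitals mark the CLEAR core, or the E-box at Lamp1.
Ctsa, chr2:164833757-164833786, plus strand: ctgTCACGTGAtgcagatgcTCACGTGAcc
Lamp1, chr8:13159061-13159160, plus strand: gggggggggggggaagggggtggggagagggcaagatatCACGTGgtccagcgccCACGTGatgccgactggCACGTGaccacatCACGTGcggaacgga
Mcoln1, chr8:3500419-3500518, plus strand: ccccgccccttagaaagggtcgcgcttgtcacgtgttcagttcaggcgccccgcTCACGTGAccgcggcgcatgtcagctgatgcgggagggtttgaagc
Ctsd, chr7:142387828-142387946, minus strand: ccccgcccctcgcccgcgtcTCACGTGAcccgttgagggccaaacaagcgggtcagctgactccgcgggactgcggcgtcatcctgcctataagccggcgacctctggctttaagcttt
Gla, chrX:134601006-134601253, minus strand: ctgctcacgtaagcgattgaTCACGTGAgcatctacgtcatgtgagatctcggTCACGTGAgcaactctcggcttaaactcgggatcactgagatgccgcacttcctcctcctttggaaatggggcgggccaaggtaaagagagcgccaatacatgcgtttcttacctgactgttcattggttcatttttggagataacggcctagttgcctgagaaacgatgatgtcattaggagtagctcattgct
Atg3, chr16:45158729-45158828, plus strand: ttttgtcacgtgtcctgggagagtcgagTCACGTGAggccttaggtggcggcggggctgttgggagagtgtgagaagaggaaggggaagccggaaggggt
Atp6v1a, chr16:44139373-44139402, minus strand: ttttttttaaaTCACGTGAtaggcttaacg
Atp6v0d1, chr8:105566050-105566079, minus strand: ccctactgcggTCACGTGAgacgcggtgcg

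At 6 of the 7 genes the CLEAR core lay inside a peak in all 3 lists. The exception was Ctsa, which encodes cathepsin A, a carboxypeptidase that also stabilises other lysosomal enzymes. Its 2 cores stand at positions -13 to -6 and 5 to 12 of a start site at 164833773 on chromosome 2, counted with the start as 1. Both lay inside an AZD2014 peak and a rapamycin peak, and in no DMSO peak. All 4 E-boxes of Lamp1, between positions -61 and -10, were inside a peak in every list.

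Most of the 48 genes had an accessible end in every condition. The DMSO list had gene-end peaks at 43 genes (89.6%), the AZD2014 list at 46 (95.8%) and the rapamycin list at 45 (93.8%). The shares over all protein-coding genes were 46%, 49.5% and 46.9%. Of the 48, 43 had a gene-end peak in all 3 lists, Ctsa and Ctso had one under AZD2014 and under rapamycin, Hexa had one under AZD2014 alone, and Tfec and Pik3c3 had none. At 11 of the 43 genes under DMSO the peak also lay at the end of a neighbouring gene, such as Isca2 beside Npc2, Eif2s1 beside Atp6v1d and Naa50 beside Atp6v1a.

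Under AZD2014 3 members had a gene-end peak that was lacking under DMSO, or 6.25%, where the share over all genes was 4.63%. None had the reverse, where the share over all genes was 1.09%. For rapamycin the counts were 2 members (4.17%, against 3.05% of all genes) and 0 (against 2.09%). Between the inhibitors, 1 member had a peak under AZD2014 and not rapamycin and 0 the reverse, where all genes gave 3.79% and 1.21%. With lists of equal length, AZD2014 kept its 3 members beside 3.03% of all genes, and 1 member, Atp6v1h, had a peak under DMSO and not AZD2014, beside 1.96%. Rapamycin then had 1 member, Ctso, beside 2.66%, and DMSO 0 against rapamycin, beside 2.34%. The pair of inhibitors differed at Ctsa and Hexa in one direction (2.53% of all genes) and at Atp6v1h in the other (1.79%). Since 43 members already had a DMSO gene-end peak, only 5 could lack one there and have one under an inhibitor. In the full lists 3 of these 5 (60%) had one under AZD2014 and 2 (40%) under rapamycin, where 8.58% and 5.65% of the 11825 genes without a DMSO gene-end peak did. Of the 116 other autophagy and lysosome genes described below, 20 had no DMSO gene-end peak. Among these 20 genes, 3 (15%) had one under AZD2014 and 2 (10%) under rapamycin. Each of these counts rests on at most 3 genes.

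In the full lists the genes that differed in presence were Ctsa, Ctso and Hexa, which encode lysosomal hydrolases. Ctso, which encodes the cysteine protease cathepsin O (chromosome 3, 81932601 to 81956725), had no DMSO peak anywhere in its window. The AZD2014 peak over its start (81932335 to 81933094) had a score of 120 and a rank percentile of 32.9. The rapamycin peak at the same place (81932298 to 81933148) had a score of 186 and a rank percentile of 60.8, a difference of -27.9 points for AZD2014 minus rapamycin. In the full lists these peaks ranked at 45.9 and 63. Of 1320 other genes whose best rapamycin gene-end peak ranked within 5 points of 63 in the full list, 12 (0.909%) had no DMSO gene-end peak. Within 5 points of the full-list AZD2014 rank of 45.9, the share was 17.5% of 703 genes. A further AZD2014 peak at -9465 bp from the start, with a score of 72.4, had no counterpart in the other lists. The Ctso promoter held none of the 3 motifs.

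Ctsa lies on chromosome 2 (164832872 to 164841032) and has 2 start sites in the table, 901 bp apart. The AZD2014 peak (164833430 to 164834029, score 89.3) and the rapamycin peak (164833453 to 164833862, score 51.9) both covered the downstream start and neither covered the upstream one. The rapamycin peak stood near the lower limit of its list and is not in the list of equal length, while the AZD2014 peak had a rank percentile of 17.7. In the full lists they ranked at 33.7 under AZD2014 and 3.09 under rapamycin. Within 5 points of these full-list ranks, 42.0% of 448 and 62.8% of 207 other genes had no DMSO gene-end peak. The peak also lay at the end of the neighbouring gene Neurl2.

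Hexa encodes the alpha subunit of beta-hexosaminidase A, which degrades GM2 ganglioside (chromosome 9, 59539540 to 59565109). Its start was covered by an AZD2014 peak (59539319 to 59539916, score 77.1, rank percentile 8.73) and by none in the other lists. This peak also lay at the end of the neighbouring gene Tmem202. The Hexa peak ranked at 26.4 in the full list, and within 5 points of this rank 49.1% of 385 other genes had no DMSO gene-end peak. The plot of peaks around start sites shows the 3 hydrolase genes beside Tfeb, Ulk2 and Lamp1.

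**Figure D1:**
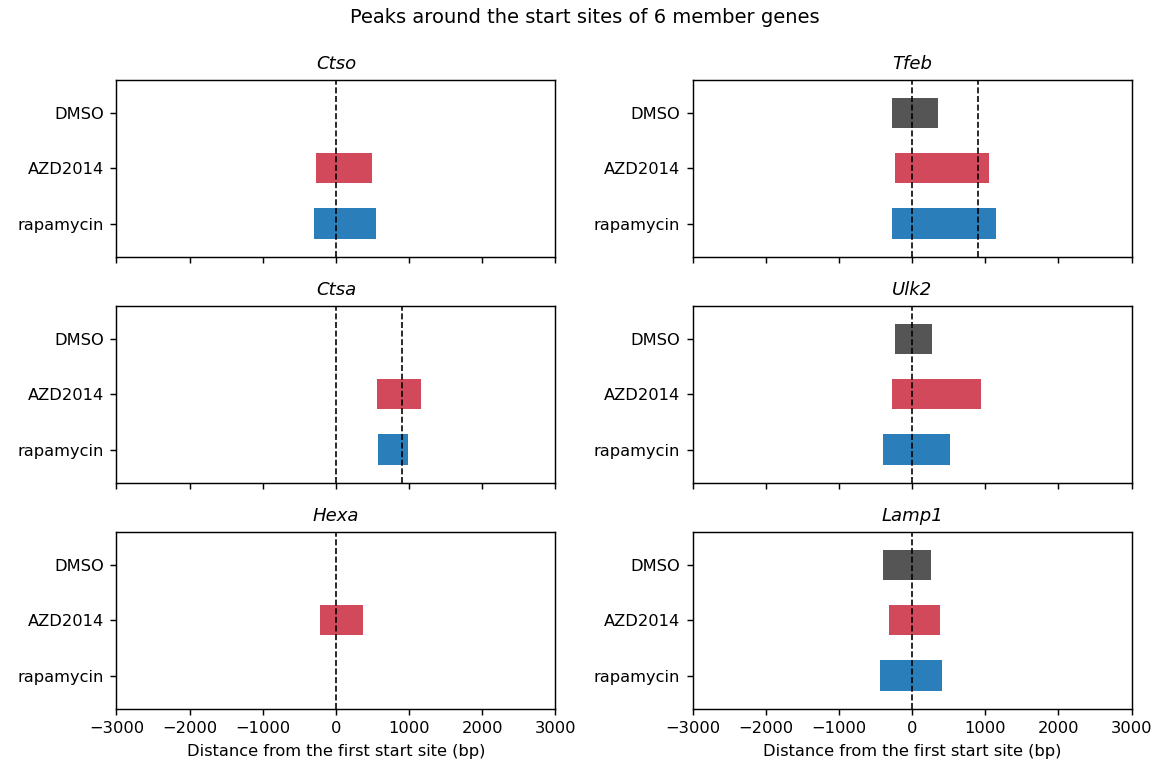
Peaks of each list (bars) by distance in bp from the first annotated start site of 6 genes, with dashed lines at the annotated starts. Ctso has a bar under AZD2014 and rapamycin and none under DMSO, the Ctsa bars cover the start at 901 bp, and the Tfeb bars reach the start at 894 bp under both inhibitors but end at 349 bp under DMSO.

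The other 6 hydrolase genes had a gene-end peak in every list. Ctsd, the gene of the aspartic protease cathepsin D, had scores of 233, 273 and 266 under DMSO, AZD2014 and rapamycin and rank percentiles of 75.3, 66.2 and 74.4. Ctsl (cathepsin L) was close to it, with rank percentiles of 74.1, 65.7 and 70.0. Gla, which encodes alpha-galactosidase A, ranked at 70.6, 75.1 and 76.6. Gaa, the acid alpha-glucosidase gene that serves glycogen breakdown, ranked at 51.5, 40.7 and 33.4, with -18.1 points for rapamycin minus DMSO. Ctsz (cathepsin Z) ranked at 35.6, 49.0 and 49.8, and Ctsb (cathepsin B) at 45.2, 41.7 and 54.8. These 6 genes ranked higher in some comparisons and lower in others, and none differed from DMSO by 20 points.

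Of the MiT/TFE genes, Tfeb, Tfe3 and Mitf had a gene-end peak in every list and Tfec had no peak in its window in any. At Tfeb (chromosome 17, 47737037 to 47792416) the DMSO, AZD2014 and rapamycin scores were 122, 191 and 180, with rank percentiles of 49.6, 52.4 and 59.5. The Tfeb peak was 622 bp wide under DMSO, 1294 bp under AZD2014 and 1421 bp under rapamycin, and all 3 began at nearly the same base (47736765, 47736796 and 47736757). The wider peaks took in the start site at 47737931, which no DMSO peak reached, while the start at 47737037 was inside a peak in all lists and the start at 47785744 in none. A peak inside the gene (47753977 to 47754719) was present in all lists, with rank percentiles of 35.7, 11.8 and 32.6, lowest under AZD2014. Another, 32011 bp from the 5′ end (47768806 to 47769290), was present under AZD2014 (score 54.2) and rapamycin (score 70.7) and not under DMSO. Its AZD2014 peak was too weak for the list of equal length.

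Tfe3 (chromosome X, 7762530 to 7775202) had scores of 224, 297 and 197, and rank percentiles of 73.8, 69.6 and 63.1. Mitf (chromosome 6, 97807002 to 98021360) had scores of 219, 244 and 220, and rank percentiles of 72.8, 61.7 and 67.3. Both ranked lower under either inhibitor than under DMSO, with -4.19 and -10.7 points at Tfe3 and -11.2 and -5.55 at Mitf. Of the 3 Mitf start sites in the table, the one at 97807058 was inside a peak in every list and those at 97929817 and 97991783 in none. Within the Mitf gene, a weak DMSO peak at 97828961 to 97829330 (score 57.3) and a weak rapamycin peak at 97887746 to 97888363 (score 61.3) each stood in 1 list.

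Start sites give a stricter measure than gene ends, because 1 base must lie inside a peak. For the 37 genes with entries, 31 of 43 start sites (72.1%) were inside a DMSO peak, 35 (81.4%) inside an AZD2014 peak and 34 (79.1%) inside a rapamycin peak. The shares over all start sites were 42.9%, 46.6% and 44.4%, also lowest under DMSO. Those inside a peak under AZD2014 and not DMSO were the starts of Ctsa, Ctso, Hexa and Tfeb, 9.30% of the 43 against 4.61% of all 21263 start sites. The starts of Ctsa, Ctso and Tfeb were so under rapamycin, 6.98% against 3.36%. No member start was inside a DMSO peak and outside an AZD2014 or a rapamycin peak, where all start sites gave 0.941% and 1.82%. Peaks were wider under the inhibitors in general. The best gene-end peak was wider under AZD2014 than DMSO at 37 of 43 members (86.0%) and at 85.3% of all genes, and wider under rapamycin at 36 (83.7%) against 77.4%. The part of peak width in the covered starts was not tested.

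**Figure D2:**
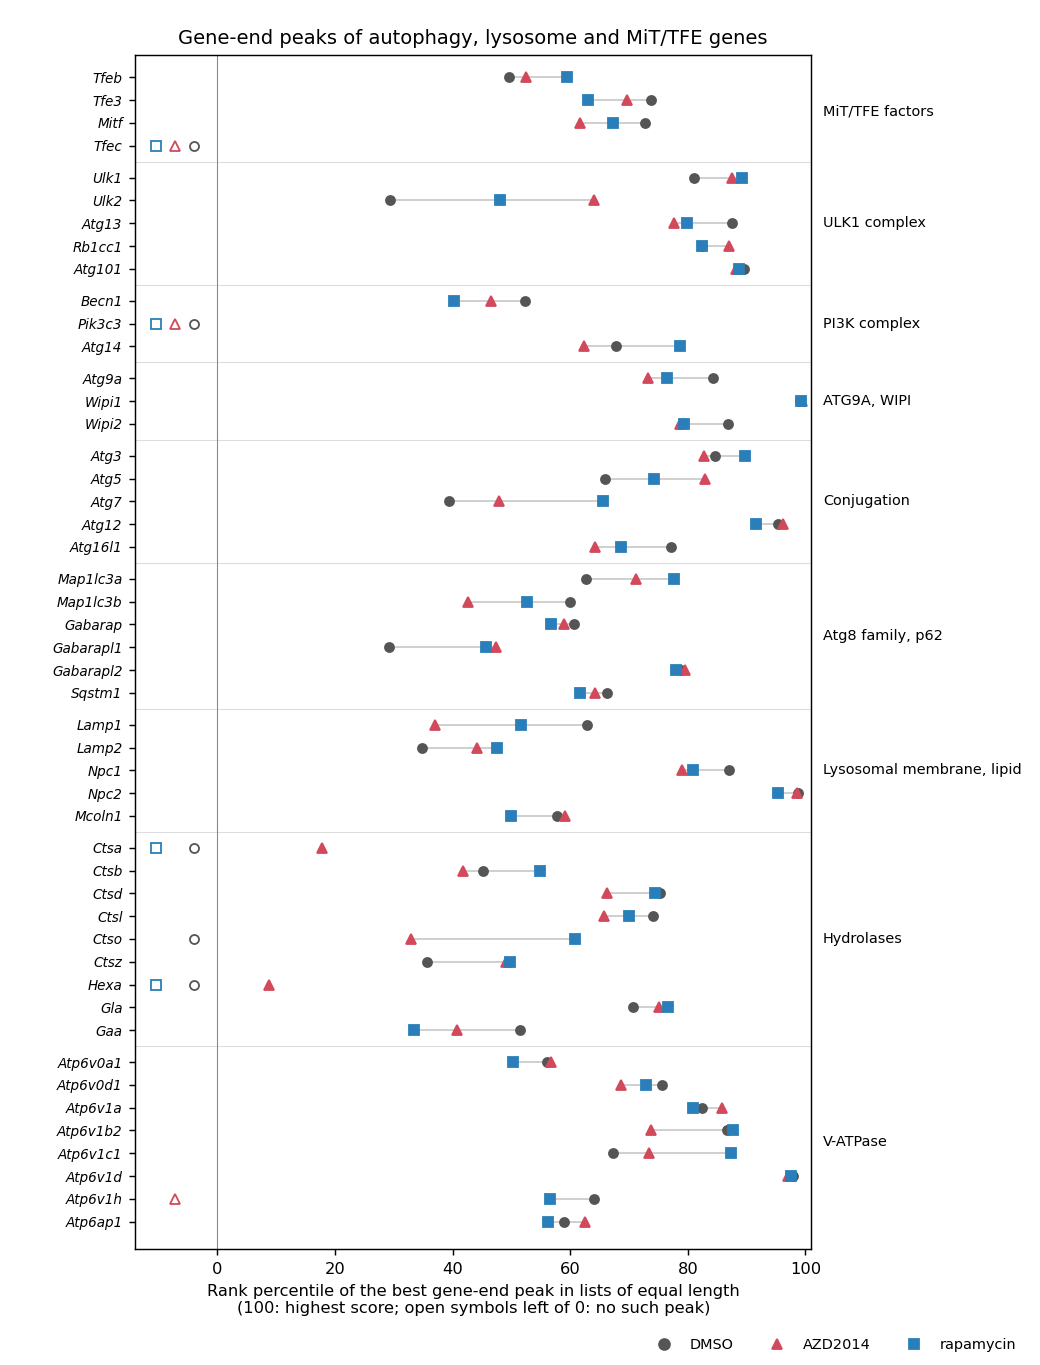
Rank percentile of the highest-scoring gene-end peak of each of the 48 genes in the DMSO (circle), AZD2014 (triangle) and rapamycin (square) lists, shortened to equal length, with open symbols left of 0 where no such peak was present. Wipi1, Npc2 and Atp6v1d lie above 95 in every list, and Ulk2, Atg7, Lamp1 and Ctso show the widest spans.

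Genes of the ULK1 complex, the kinase complex that starts autophagosome formation, all had a gene-end peak in each list. Ulk2, which encodes a kinase related to ULK1 (chromosome 11, 61775598 to 61855334), had the largest rank difference among members ranked in both equal-length lists. Its peak scored 79.4 with DMSO, 258 with AZD2014 and 131 with rapamycin, and its rank percentile was 29.4, 64 and 48. The differences from DMSO were 34.6 points for AZD2014 and 18.6 for rapamycin. The peak was 503 bp wide under DMSO and 1214 and 917 bp under the inhibitors, and reached further into the gene. Ulk1 ranked at 81.1, 87.5 and 89.3. Atg13 (87.6, 77.7 and 79.8), Rb1cc1, the gene of the scaffold protein FIP200 (82.4, 87.0 and 82.5), and Atg101 (89.5, 88.2 and 88.8) kept high ranks in all lists.

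Of the class III phosphatidylinositol 3-kinase genes, Becn1, which encodes the regulatory subunit beclin 1, ranked at 52.3, 46.6 and 40.2. Atg14, whose product directs the complex to autophagy, ranked at 67.8, 62.4 and 78.7. Pik3c3, the gene of the catalytic subunit, had no gene-end peak, although a peak further inside the gene was present in all lists with scores of 232, 313 and 314. It also held an AZD2014 peak just beyond the 1 kb limit (score 91.1). Wipi1, which encodes a phosphoinositide-binding protein of the forming autophagosome, had the highest rank of the 48 genes in every list (99.1, 99.5 and 99.3; scores 615, 907 and 745). Wipi2 ranked at 86.8, 78.6 and 79.3, and Atg9a, the gene of a lipid scramblase carried in vesicles, at 84.3, 73.2 and 76.5.

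Among the genes of the 2 ubiquitin-like conjugation systems, Atg7 stood out. It encodes the E1-like activating enzyme, and its gene-end peak (chromosome 6, 114642780 to 114643394 under DMSO) scored 96.7, 171 and 210 under DMSO, AZD2014 and rapamycin. The rank percentiles were 39.3, 47.9 and 65.5, so the rapamycin rank was 26.2 points above DMSO. A second Atg7 peak inside the gene, 17058 bp from its 5′ end, scored 117 under DMSO and 67.3 under rapamycin and was missing under AZD2014. The peaks of the gene thus differed in which list ranked them highest. Atg5 (65.9, 82.9 and 74.3) ranked higher under both inhibitors. Atg3, the E2-like enzyme gene (84.6, 82.8 and 89.8), and Atg12 (95.3, 96.2 and 91.6) ranked high in every list, and Atg16l1 ranked at 77.1, 64.3 and 68.6.

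In the Atg8 family, Gabarapl1 ranked at 29.2 with DMSO, 47.3 with AZD2014 and 45.7 with rapamycin, with scores of 78.9, 168 and 124. Map1lc3a, one of the LC3 genes, ranked at 62.7, 71.2 and 77.7. Map1lc3b was highest under DMSO, at 59.9, 42.6 and 52.7. Gabarapl2 was nearly level at 78.9, 79.5 and 78.0. Gabarap had peaks at both ends, and the stronger one lay at the neighbouring gene Phf23 (60.6, 59.0 and 56.8). The peak over the Gabarap start itself, singled out after its values were seen, also lay at the end of a neighbouring gene, Ctdnep1. This peak scored 74.3, 119 and 164 and ranked at 25.8, 32.6 and 56.1, a rapamycin rank 30.3 points above DMSO. Sqstm1, the gene of the cargo receptor p62, ranked at 66.3, 64.3 and 61.7. A peak at -2498 bp from the 5′ end of Sqstm1 was present under AZD2014 (score 108) and rapamycin (66.5) and absent under DMSO.

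Lamp1, which encodes an abundant glycoprotein of the lysosomal membrane (chromosome 8, 13159161 to 13175338), was the furthest below DMSO of the members ranked in both equal-length lists. Its peak scored 170 under DMSO, 132 under AZD2014 and 144 under rapamycin, with rank percentiles of 62.9, 37.0 and 51.7. The differences were -25.9 points for AZD2014 and -11.2 for rapamycin, although the peak was present in all lists and covered its 4 E-boxes. Lamp2, whose product is a related membrane protein, ranked at 34.8, 44.1 and 47.6. A peak at -17346 bp from the 5′ end of Lamp2 (chromosome X, 38473365 to 38474248) was called under AZD2014 (score 175) and rapamycin (score 103) and not under DMSO. Npc2 (98.8, 98.5 and 95.3) and Npc1 (87.1, 79.1 and 80.9), whose products export cholesterol from lysosomes, ranked high throughout. Mcoln1, the gene of the lysosomal calcium channel TRPML1, ranked at 57.8, 59.2 and 50.

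All 8 V-ATPase genes had a gene-end peak in each full list. Atp6v1d, a stalk subunit gene, ranked at 97.9, 97.0 and 97.6. Atp6v1c1, the gene of a subunit that links the V1 and V0 sectors, had scores of 190, 327 and 384 and rank percentiles of 67.2, 73.4 and 87.4, a rapamycin rank 20.2 points above DMSO. Atp6v1h, which encodes a regulatory subunit, had scores of 175, 58.1 and 166. Its AZD2014 peak stood at a rank percentile of 10.9 in the full list and was too weak for the list of equal length, whose lowest AZD2014 score was 67.1, while DMSO and rapamycin ranked at 64.1 and 56.5. Atp6v1b2 (86.6, 73.7 and 87.7) was lower under AZD2014 alone. Atp6v1a (82.4, 85.8 and 80.9), Atp6v0d1 (75.6, 68.6 and 72.9), Atp6v0a1 (56.0, 56.7 and 50.2) and Atp6ap1 (59.0, 62.5 and 56.2) differed from DMSO by 7 points or less.

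Over the list as a whole, ranks were higher at some genes and lower at others. Of 42 members with a gene-end peak in both equal-length lists, 19 ranked higher under AZD2014 than DMSO and 23 lower, with a median difference of -1.13 points (quartiles -8.20 and 4.28). Over all 9632 such genes the median was 0.30 points (-4.82 and 6.04). Ulk2 was the 1 member at least 20 points higher (2.38%, against 4.9% of all genes) and Lamp1 the 1 at least 20 points lower (2.38%, against 2.86%). For rapamycin 17 of 43 members ranked higher and 26 lower, with a median of -1.54 points, against 0.20 over 9550 genes. Atg7 and Atp6v1c1 were at least 20 points higher (4.65%, against 4.97%) and none was 20 points lower, where 3.7% of all genes were. Between the inhibitors Ctso alone passed 20 points, lower under AZD2014 (2.33%, against 2.77%), and 0 members were higher, against 3.34%. These shares lie near or below those of all genes.

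**Figure D3:**
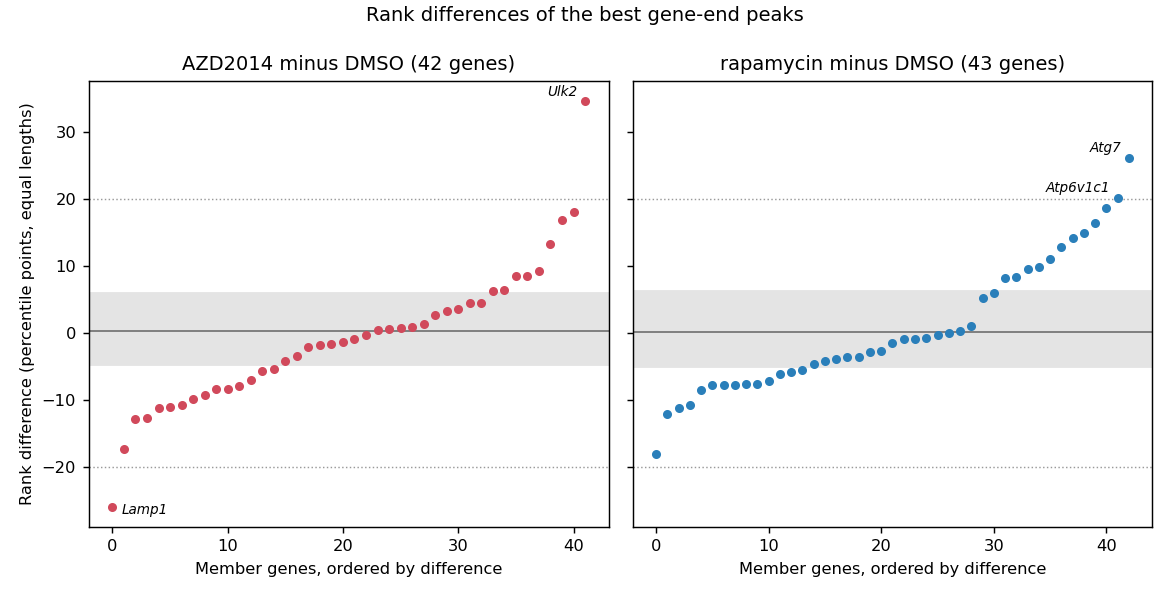
Difference in rank percentile of the best gene-end peak between each inhibitor and DMSO, for each member with such a peak in both equal-length lists (42 and 43 genes), ordered by size. The grey band spans the quartiles of all genes, the line is their median and dotted lines mark 20 points. Ulk2 and Lamp1 lie outside the dotted lines under AZD2014, and Atg7 and Atp6v1c1 under rapamycin.

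Peaks in the windows of the 48 genes numbered 85 in the DMSO, 101 in the AZD2014 and 99 in the rapamycin list. The ratios to DMSO were 1.19 and 1.16, where the windows of all genes gave 1.18 and 1.03. In lists of equal length the numbers were 85, 92 and 93, with ratios of 1.08 and 1.09 against 1.01 and 0.993. In the full lists, 17 members had more window peaks under AZD2014 than DMSO, 3 fewer and 28 the same number. For rapamycin these were 16, 2 and 30. Both inhibitor lists are longer than the DMSO list, and these counts are not set beside those of all genes. The largest difference was 2 peaks. By role and in the order DMSO, AZD2014, rapamycin, hydrolase windows held 14, 20 and 16 peaks, those of the lysosomal membrane and lipid genes 6, 9 and 7, those of the Atg8 family with Sqstm1 14, 16 and 18, and those of the V-ATPase 16, 16 and 19. The MiT/TFE windows held 7, 8 and 9. At equal lengths some of these orders turned, with 14, 18 and 13 at the hydrolases, 7, 6 and 9 at the MiT/TFE genes and 16, 15 and 17 at the V-ATPase.

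Overlapping peaks of the 3 lists formed 116 regions in these windows, counted per gene. At the genes' own ends 47 of 52 regions (90.4%) held a peak in all 3 lists, against 82.8% in the windows of all genes. Inside gene bodies away from the ends it was 3 of 14 (21.4%, against 39.1%), and outside the genes 27 of 50 (54.0%, against 63.1%). Away from every gene end 7 of 36 regions (19.4%) were in all lists, against 39.2% for all genes. There 9 (25%) were in the AZD2014 list alone, 8 (22.2%) in the rapamycin list alone and 5 (13.9%) in both of these, against 22.2%, 9.52% and 10.9%. The DMSO list alone held 3 (8.33%, against 8.12%), DMSO with AZD2014 2 (5.56%, against 7.78%) and DMSO with rapamycin 2 (5.56%, against 2.35%). Several of these regions lie in the window of the same gene, and none of these shares was tested. The 5 regions under both inhibitors were those described at Tfeb, Sqstm1 and Lamp2, 1 upstream of Tfe3 and 1 beyond Atp6v1c1. Of the regions away from gene ends that were missing from a list, those at Lamp2, Atg7 and Sqstm1 and 1 upstream of Ctsd under AZD2014 (score 102) had a score above 100.

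**Figure D4:**
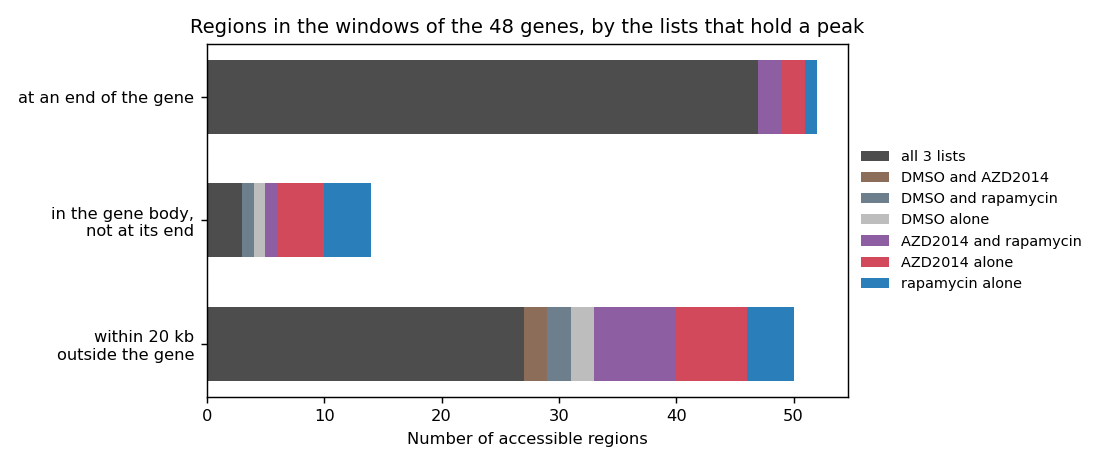
Number of accessible regions in the windows of the 48 genes at an end of the gene, in its body and within 20 kb outside it, coloured by the lists that hold a peak in the region. Regions in all 3 lists make up 47 of 52 at gene ends and 3 of 14 in gene bodies, where the windows of all genes gave 82.8% and 39.1%.

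Another 116 genes of autophagosome formation, cargo receptors and fusion, MiT/TFE control, lysosomal enzymes, lysosomal membrane and cofactors, and V-ATPase were set beside the members. Gene-end peaks were present at 96, 99 and 95 of them in the DMSO, AZD2014 and rapamycin lists. Under AZD2014 3 had a peak that was lacking under DMSO and 0 the reverse, and under rapamycin 2 and 3. Clcn7, the gene of a lysosomal chloride and proton exchanger, had none under DMSO and a peak over its start under AZD2014 (score 91.4) and rapamycin (64.6). All 21 receptor and fusion genes had a gene-end peak in each list. Lysosomal enzyme genes were the most uneven, with 28, 29 and 25 of 33. The CLEAR core stood in the promoters of 6 of 97 of these genes (6.19%).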

How the data were processed

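ATAC-seq peak lists of 3 libraries, 1 per condition, were used. The submitters' processing notes name CASAVA and the mm10 build. The authors deposited a chromosome, start, end, name and score for each peak. Peak names carry the word MACS. For its settings, the aligner, duplicate removal and any shift of reads: not given in the sources used here. The authors' score served here for ranking peaks inside 1 list, and ranks were compared between lists. As an exception, a score above 100 in any list served to name regions away from gene ends. Per the labels' protocols, transposition ran for 30 min at 37 °C on 50000 cells per library. Starts were written from 1.

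Genes, start sites and promoters came from RefSeq tables of GRCm38.p6, the assembly mm10 names. A peak counted where it overlapped the gene end, window or start by 1 bp. Lists were also shortened to their highest scores at the length of the DMSO list, the shortest. Full values are given for members that differ in presence, members that differ by 20 points or more in rank, the MiT/TFE genes and the 3 highest ranks, and sequences for such members with a CLEAR core or E-box in a peak and for the highest-ranked members with a CLEAR core, at most 8. Of the other genes, those that differ from DMSO the same way under both inhibitors are named. Members and lists were chosen with earlier results of these data known. The counting was checked on a list with planted changes. Python 3.11.15, numpy 2.4.6, pandas 2.3.3 and matplotlib 3.10.9 were used.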

Additional observations from a re-analysis of the deposited data

How the results depend on the processing

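Alternatives to the gene-end distance, list length, overlap rule and window were tried, and 1 restriction of ranks to the start side was added after the data were seen. With gene ends of 500 bp rapamycin added 1 member to DMSO in place of 2, because Ctsa left, and AZD2014 added 2. There 3% and 4.3% of all genes had a peak under rapamycin and AZD2014 that DMSO lacked. With gene ends of 2500 bp AZD2014 had 2 members that rapamycin lacked, Pik3c3 and Hexa, beside 4.19% of all genes. At equal list lengths the counts were 1 for DMSO and not AZD2014, 1 for rapamycin and not DMSO, 2 for AZD2014 and not rapamycin and 1 for rapamycin and not AZD2014, and the window ratio of AZD2014 to rapamycin turned from 1.02 to 0.989. With the 50% highest scores of each list, AZD2014 had 7 members that DMSO lacked and DMSO 2 that AZD2014 lacked, where all genes gave 5.86% and 0.64%. There rapamycin had 7 that DMSO lacked and DMSO 2 the reverse (3.62% and 1.85% of all genes), and each inhibitor had 3 that the other lacked (4.3% for AZD2014, 0.845% for rapamycin). The 7 under AZD2014 were Tfeb, Ulk2, Atg7, Gabarapl1, Lamp2, Ctsb and Ctsz. Ranks taken in the full lists, which differ in length, turned the median difference to 1.87 points for AZD2014 minus DMSO and 1.07 for AZD2014 minus rapamycin, where all genes gave 4.44 and 2.81. On the start side alone, Gabarap was the 1 of 32 members 20 points higher under rapamycin than DMSO, against 4.8% of all genes. Gabarap and Ctso, 2 of 33 members, were 20 points lower under AZD2014 than rapamycin, against 2.69%. Atg7 and Atp6v1c1 are not called there: the peak of Atg7 is not at its listed start, and Atp6v1c1 has no start in the table. No paired analysis was possible because each condition has 1 library. Read depth is unknown, so absent peaks cannot be told from peaks below the threshold.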
